A study of Bos taurus with 16 samples.

Results

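Intermediate filaments are rope-like protein cables that differ by cell type. In an epithelium, 1 type II keratin chain (such as KRT8 or KRT7) pairs with 1 type I chain (such as KRT18 or KRT19), and the KRT8, KRT18, KRT19 and KRT7 keratins are the filaments of simple epithelia such as the trophectoderm, the outer layer of the blastocyst. VIM (vimentin) is the type III filament of mesenchymal cells, PRPH (peripherin) is a type III filament best known from peripheral neurons, NES (nestin) is a type IV filament of progenitor cells, and LMNA and LMNB1 encode the lamins that line the inner face of the nucleus in nearly all cells. These 9 genes were followed across bovine blastocysts and bovine embryonic stem cells (bESCs) cultured with or without LY2955303 (LY), an inhibitor of retinoic acid receptor gamma.

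The 9 genes were taken by name, and each was found once in all 3 deposited tables, which list 38959, 37429 and 28303 genes. The group was drawn up with earlier results of these data known and is named for PRPH, so the levels and changes of PRPH are described below without a test. The tests are given for the other 8 genes.

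All samples were labelled wild type. The first table holds single blastocysts cultured with the DMSO vehicle (DMSO, 3 libraries) or with 10 μM LY (LY10, 3 libraries). The second holds single blastocysts given LY from the 2-cell stage (cell2_LY), given LY from the 16-cell stage (cell16_LY) or labelled as the DMSO control of LY (LY_DMSO), with 2 libraries each, and LY_DMSO is the control of both treated groups. The third holds bESCs grown on a layer of inactivated mouse fibroblasts in TIFX medium, which holds LIF and kinase inhibitors in both groups, without LY (bESC_tifx, replicates 2 and 3) or with LY (bESC_LY, replicates 2 and 3). In the study LY10 embryos were given LY from the 2-cell stage and bESCs 10 μM LY, while the labels give no dose for cell2_LY and cell16_LY. They do not say whether the bESC replicates are separate lines or cultures. Where nothing says that samples came from separate cultures, the p-values measure only the spread between these samples. Each blastocyst is 1 embryo made by in vitro fertilization and holds trophectoderm, epiblast and hypoblast together, so fewer cells of a type and less RNA per cell cannot be told apart.

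The blastocyst libraries had between 7905768 and 17343140 reads on genes and the bESC libraries between 29055323 and 31230432. All 10 trophectoderm markers of the list used here were present in the blastocyst tables, with a summed level of 108.2 to 273.5 FPKM (fragments per kilobase of gene, scaled to the library's reads), against 5.48 to 24.2 FPKM in the bESC libraries. Of the 8 epiblast markers listed, 6 were present in the bESC table, and 4 reached 1 FPKM in each bESC library. POU5F1, an epiblast transcription factor, stood at 966.9 to 1117 FPKM in the bESCs and at 164.4 to 611.4 FPKM in the blastocysts. ZFP42 went the other way, at or below 0.308 FPKM in the bESCs and at 125.7 to 826.7 FPKM in the blastocysts. KLF17 was at 0 FPKM in the bESCs. Some libraries were nearer to another group than to their own. Over genes, DMSO replicate 3 had Spearman correlations of 0.903 to 0.927 with the LY10 libraries and of 0.883 and 0.844 with DMSO replicates 1 and 2. In the second table the gaps were smaller: LY_DMSO replicate 1 and cell2_LY replicate 2 each correlated at 0.935 with their own partner, and at up to 0.962 and 0.952 with cell16_LY replicate 2. Many of the results that rest on these libraries are also given without them.

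In blastocysts the simple epithelial keratins led the group. KRT8 ranged from 1582 to 6493 FPKM (median 3301, n = 12) and was between the 7th and the 64th most abundant gene of its library. KRT18 followed at 848.8 to 2902 FPKM (median 1495) and KRT19 at 91.2 to 1084 FPKM (median 422.4). KRT7 was a minor chain at 0.883 to 17.4 FPKM (median 9.99). LMNA (median 12.9 FPKM) and LMNB1 (median 10.0 FPKM) were close to each other, NES never exceeded 1.68 FPKM, and VIM was at or below 0.627 FPKM in 9 of the 12 embryos. PRPH was present in all 12 embryos, from 8.18 to 193.9 FPKM (median 81.4). Its group mean was above those of LMNA and LMNB1 in every blastocyst group except LY_DMSO.

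The bESCs had another filament make-up. VIM was the highest of the 9 genes in both bESC groups (227.8 to 258.4 FPKM), and NES was at 81.4 to 105.3 FPKM. The bESCs grew on mouse fibroblasts, and the 8 fibroblast markers summed to 96.8 to 108.1 FPKM in these libraries. Most of that sum was COL1A1 (45.8 to 54.7 FPKM), FBLN1 (27.3 to 39.2 FPKM) and THY1 (10.0 to 18.7 FPKM). COL3A1, DCN and POSTN were at or below 0.534 FPKM, and COL1A2 and LUM at or below 3.79 FPKM. The part of the feeder cells in the VIM level was not tested. LMNB1 was at 80.3 to 110.6 FPKM while LMNA was at 5.90 to 9.53 FPKM. KRT8 (60.4 to 208.6 FPKM), KRT18 (16.8 to 85.6 FPKM) and KRT19 (36.5 to 150.1 FPKM) were present below their blastocyst medians. The tables were normalized separately and use different gene models, so no test was made between blastocysts and bESCs. The order of the 9 genes by mean level was the same in TPM, which also scales each library to a fixed sum, in 7 of the 7 groups. Within the groups, many neighbours in that order overlapped: in DMSO and LY10 the values of KRT8 overlapped those of KRT18, and those of LMNB1 overlapped those of LMNA, and in the bESC groups every neighbour after VIM overlapped the next.

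**Figure D1:**
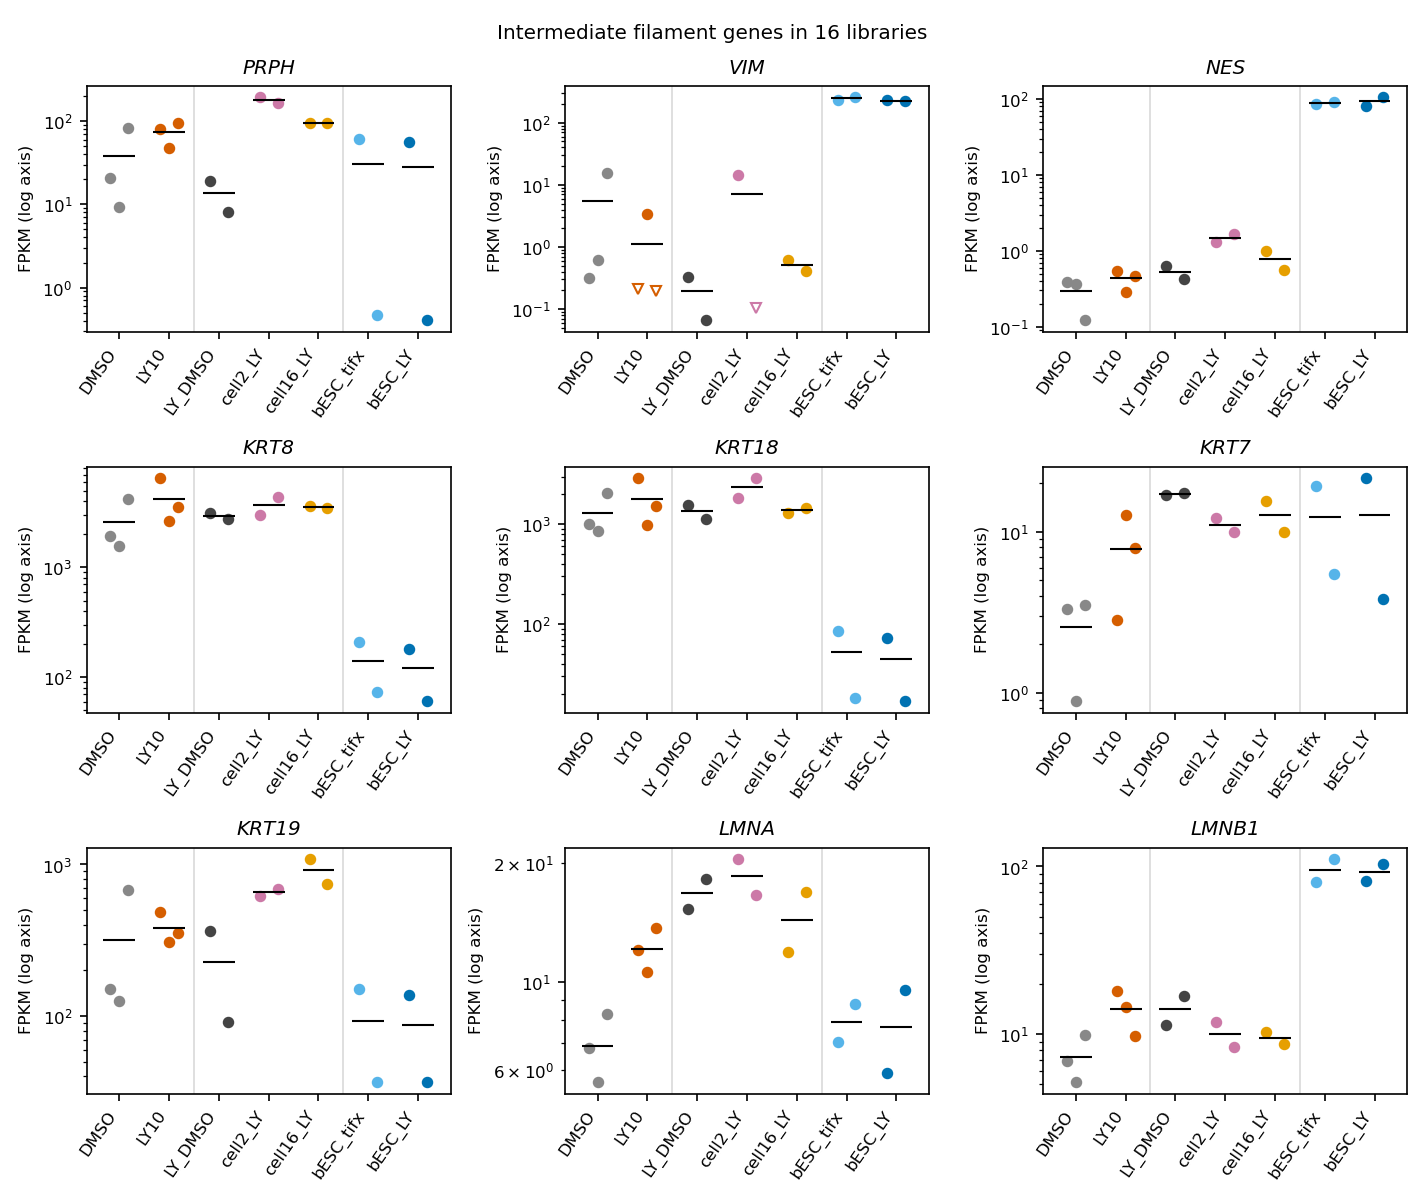
Level of each of the 9 genes in FPKM (log axis) in every library, grouped by treatment; points are libraries, black lines are group means, and open triangles are libraries with 0 reads, drawn at the level of 3 reads. KRT8 and KRT18 have the highest means in every blastocyst group, VIM and NES are high in the bESC libraries, and PRPH separates bESC replicates 2 and 3.

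The position of each gene, as the blastocyst tables give it, places 4 of the 9 on chromosome 5. KRT18 (chr5:26998520-27002170, minus strand) and KRT8 (chr5:27040267-27047717, plus strand) are 38096 bases apart, KRT7 is at chr5:27674858-27688924 and PRPH at chr5:30519199-30522949, both on the minus strand. KRT19 is at chr19:41731623-41735456, VIM at chr13:31653816-31661745, NES at chr3:14159893-14168905, LMNA at chr3:14642008-14661226 and LMNB1 at chr7:27122940-27175858. The genome build is not given in the sources used here, and 9 of 9 of these positions equal those of the RefSeq annotation of assembly ARS-UCD2.0. The values sum reads over each gene's exons. In the bESC table, which uses Ensembl gene models, 2 of 9 positions equal the RefSeq ones.

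PRPH, the gene that names the group, stood at 47.8 FPKM or more in each LY-treated blastocyst. It stood at 20.9, 9.26 and 82.9 FPKM in the DMSO embryos and at 79.9, 47.8 and 94.99 FPKM in the LY10 embryos. DMSO replicates 1 and 2 were below every LY10 embryo, and DMSO replicate 3 was above 2 of the 3. The means were 37.7 ± 39.6 FPKM (SD, n = 3) in DMSO and 74.3 ± 24.1 FPKM (SD, n = 3) in LY10, a ratio of 1.97, with a log2 fold change of 1.497 (SE 0.68). Without DMSO replicate 3 the ratio of the means was 4.92 and the log2 fold change 2.35.

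In the second table PRPH stood at 19.01 and 8.18 FPKM in LY_DMSO, at 193.9 and 166.7 FPKM in cell2_LY and at 95.4 and 95.4 FPKM in cell16_LY. The 3 groups did not overlap: the controls were lowest and the embryos given LY from the 2-cell stage highest. The cell2_LY mean was 13.3 times the LY_DMSO mean (180.3 ± 19.3 against 13.6 ± 7.66 FPKM, SD, n = 2 each), a log2 fold change of 3.85 (SE 0.38). The cell16_LY mean was 7.02 times the same LY_DMSO mean, a log2 fold change of 2.93 (SE 0.38). With 1 library left out the log2 fold change ran from 3.24 without LY_DMSO replicate 2 to 4.45 without LY_DMSO replicate 1 in cell2_LY, and from 2.33 to 3.54 without the same libraries in cell16_LY. Against cell2_LY, cell16_LY had a log2 fold change of -0.91 (SE 0.38). Only 0.227% of the tested genes had a larger log2 fold change than PRPH in cell2_LY and 0.668% in cell16_LY, which describes the choice of the gene rather than testing it. The counts behind these levels were 271 to 5437 reads per library.

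In the bESCs, PRPH followed the replicate number and not the treatment. It stood at 61.0 FPKM (3367 reads) in bESC_tifx replicate 2 and 56.3 FPKM (3024 reads) in bESC_LY replicate 2. In replicate 3 it stood at 0.472 FPKM (28 reads) and 0.404 FPKM (24 reads). The mean of replicate 2 was 134.0 times the mean of replicate 3, while LY to TIFX ratios were 0.923 and 0.856 within the numbers. The log2 fold change under LY was -0.17 (SE 3.31), and that SE holds the gap between the replicate numbers.

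The keratins moved the same way between the bESC numbers to a smaller extent. Replicate 2 was above replicate 3 by 4.497 times for KRT18, 4.41 times for KRT7, 3.94 times for KRT19 and 2.90 times for KRT8. VIM (0.954), NES (0.842), LMNB1 (0.758) and LMNA (0.706) had ratios below 1. The 6 smooth muscle markers summed to 105.0 and 94.5 FPKM in replicate 2 and to 15.92 and 15.98 FPKM in replicate 3. One of them, DES (desmin), the muscle type III filament, named here after its values were seen, stood at 86.4 and 76.1 FPKM in replicate 2 and at 4.66 and 3.58 FPKM in replicate 3. Marker lists differed between the numbers as well: the 8 hypoblast markers summed to 45.5 and 46.2 FPKM in replicate 2 and to 154.0 and 155.4 FPKM in replicate 3. Most of that gap was FN1, at 25.0 and 25.9 FPKM in replicate 2 and at 111.2 and 110.9 FPKM in replicate 3. The hypoblast transcription factors GATA4, SOX17, GATA6 and HNF4A were at or below 0.386 FPKM in every bESC library. The trophectoderm transcription factor CDX2 was at 0.368 FPKM without and 0.243 FPKM with LY in replicate 2 and at 13.7 and 15.2 FPKM in replicate 3. The part of any of these in the keratin and PRPH levels was not tested.

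PRPH is known as a neuronal filament, so the 9 neuron markers were read beside it. In the 12 blastocysts they summed to 8.60 to 42.4 FPKM, of which TUBB3 and SNAP25 made the most in every embryo, and GAP43, a protein of growing axons, had 0 reads in all 12. The lowest sum, 8.60 FPKM, was in the embryo with the highest PRPH, cell2_LY replicate 1. In the bESCs the list was higher in replicate 3 (620.6 and 665.8 FPKM) than in replicate 2 (410.1 and 429.8 FPKM), the opposite order to PRPH. No gene overlapped PRPH in the first blastocyst table, and the second was not searched. Its nearest annotated neighbours there were an unnamed gene model 6074 bases away (0.215 to 3.67 FPKM in DMSO and LY10) and LOC100141266, tubulin alpha-1C, 17452 bases away. The tubulin gene stayed between 68.6 and 117.6 FPKM in the 12 blastocysts, with its DMSO and LY10 values overlapping. In the second table it was at 110.1 and 112.7 FPKM in cell2_LY against 92.1 and 95.3 FPKM in LY_DMSO, without overlap.

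**Figure D2:**
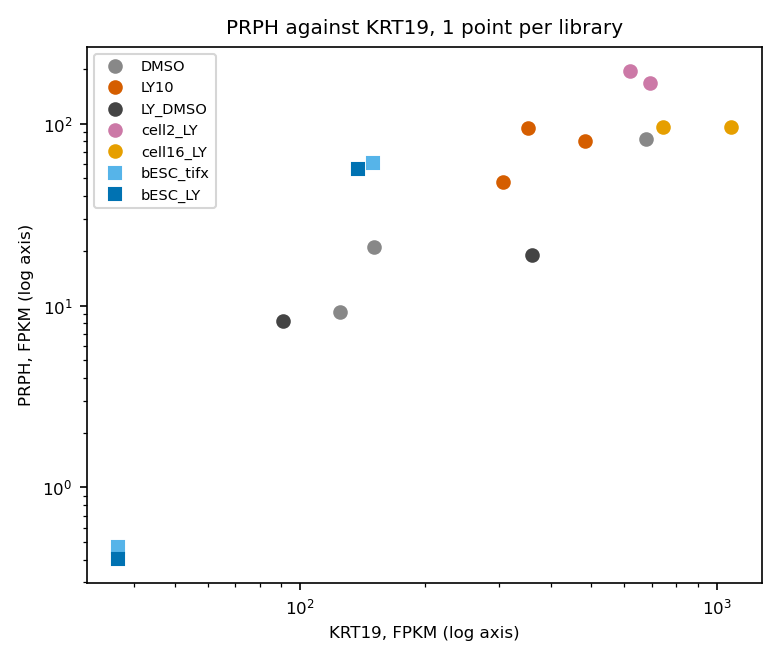
PRPH against KRT19, both in FPKM on log axes, with 1 point per library; circles are blastocysts and squares bESCs. The cell2_LY and cell16_LY embryos sit at the upper right, DMSO replicate 3 lies with them, and bESC replicate 3 sits at the lower left.

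Genes whose levels ran most like PRPH were sought over the 12 blastocysts, with each table centred on its own mean, among 11274 genes with a mean of at least 1 FPKM. The 5 nearest were ALDH1A3 (Pearson r = 0.968, Spearman rho = 0.769), an enzyme that makes retinoic acid from retinaldehyde, MAP2K5 (r = 0.952, rho = 0.867), a kinase of the ERK5 pathway, ABHD14B (r = 0.945, rho = 0.972), RFFL (r = 0.940, rho = 0.965), a ubiquitin ligase, and POLM (r = 0.938, rho = 0.951), a DNA polymerase of end joining. ALDH1A3 stood at 3.24 to 14.0 FPKM in DMSO and 10.3 to 14.2 FPKM in LY10, and at 1.61 and 3.43 FPKM in LY_DMSO, 12.5 and 18.1 FPKM in cell2_LY and 15.2 and 17.8 FPKM in cell16_LY. Of the other filament genes, KRT19 came nearest to PRPH (r = 0.883, rho = 0.685, rank 33), followed by KRT18 (r = 0.670) and KRT8 (r = 0.650). LMNA (0.453), VIM (0.360), KRT7 (0.125) and LMNB1 (0.0891) were further off. The points share the treatment groups, so these values describe likeness in these libraries and no more.

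The comparison of LY10 with DMSO asked how 10 μM LY changed the blastocyst. A gene was called when its unadjusted p was under 0.05 and its absolute log2 fold change above 1, the study's threshold. With limma, none of the 8 tested filament genes was called, 2 of the 8 had an unadjusted p under 0.05, and voom weights also called 0. Over all 14249 tested genes, 14.7% were called and 22.9% had an unadjusted p under 0.05. The median log2 fold change of the 8 was 0.71, against -0.05 over all tested genes, and 7 of the 8 were positive.

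The lamins had the smallest p of the 8. LMNA stood at 6.81, 5.58 and 8.33 FPKM in DMSO and at 12.04, 10.6 and 13.7 FPKM in LY10. The groups did not overlap, as for 28.1% of all tested genes. Its log2 fold change was 0.82 (95% interval 0.22 to 1.43, adjusted p = 0.127, limma). LMNB1 stood at 6.86, 5.14 and 9.81 FPKM in DMSO and at 17.98, 14.6 and 9.67 FPKM in LY10, where replicate 3 fell just under the highest control. Its log2 fold change was 0.95 (95% interval 0.17 to 1.74, adjusted p = 0.154, limma). Neither change reached a log2 value of 1.

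KRT8 stood at 1950.0, 1582 and 4211 FPKM in DMSO and at 6493, 2637 and 3516 FPKM in LY10. KRT18 stood at 1006, 848.8 and 2076 FPKM in DMSO and at 2902, 987.1 and 1526 FPKM in LY10. KRT19 stood at 150.3, 124.8 and 677.1 FPKM in DMSO and at 483.6, 306.7 and 353.5 FPKM in LY10. For all 3 genes DMSO replicate 3 lay within or above the LY10 values, and the log2 fold changes of 0.74, 0.43 and 0.68 did not pass the threshold (adjusted p = 0.341, 0.583 and 0.493, limma). KRT7 stood at 3.31, 0.883 and 3.50 FPKM in DMSO and at 2.82, 12.8 and 7.97 FPKM in LY10, a log2 fold change of 1.57 (95% interval -0.01 to 3.16, adjusted p = 0.22, limma). NES stood at 0.393, 0.362 and 0.121 FPKM in DMSO and at 0.539, 0.286 and 0.471 FPKM in LY10, on 7 to 32 reads a library.

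Without DMSO replicate 3, 4 of the 8 genes were called, all higher in LY10: KRT7 (log2 fold change 1.91), KRT19 (1.45), LMNB1 (1.195) and KRT8 (1.16). In that setting 24.2% of all tested genes were called, 9.46% higher, or 3449 genes against 2097 with the library. Leaving out any other library but DMSO replicate 2 also called 1 gene: KRT7 without DMSO replicate 1 (1.87) or LY10 replicate 1 (2.18), VIM without LY10 replicate 2 (-4.93) and LMNB1 without LY10 replicate 3 (1.202). Over all tested genes, 11.3% to 13.7% were called in these fits, so 1 of 8 is near that share. DMSO replicate 3 also held the most VIM of the blastocysts. VIM stood at 0.315, 0.606 and 15.5 FPKM in DMSO, and in LY10 at 3.404 FPKM in replicate 2 with 0 reads in replicates 1 and 3, which allows up to 0.208 and 0.197 FPKM. The fibroblast markers summed to 91.1 FPKM in DMSO replicate 3, of which LUM made 80.1 FPKM, and to 6.10 to 24.7 FPKM in the other 11 blastocysts. VIM was also high, at 14.5 FPKM, in cell2_LY replicate 1, where the fibroblast markers summed to 12.1 FPKM. The part of other cell types in the VIM reads was not tested.

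**Figure D3:**
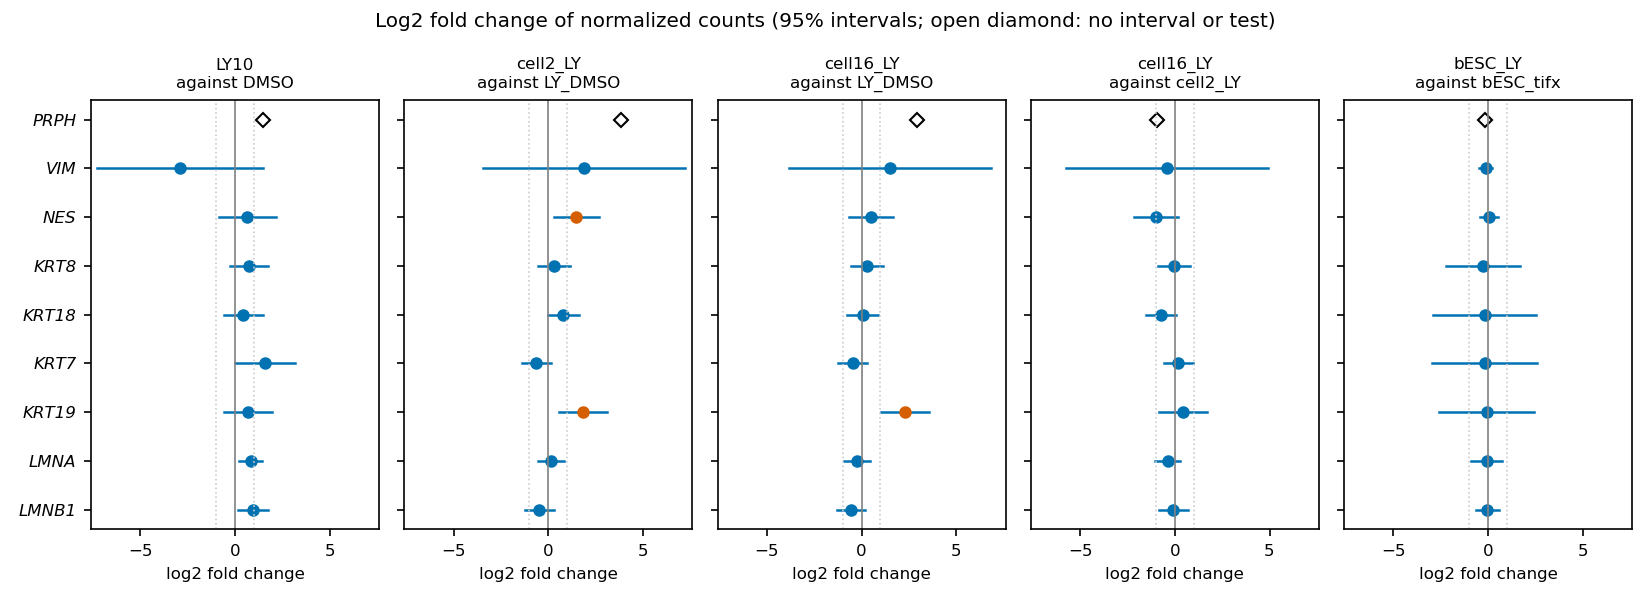
Log2 fold change of each gene in the 5 comparisons; circles with bars are limma estimates with 95% intervals, orange circles passed the threshold, dotted lines mark log2 values of 1 and -1, and the open diamonds are PRPH, given without an interval or test. KRT19 passed in both comparisons with LY_DMSO, NES passed in cell2_LY, and the VIM intervals span 0 in every blastocyst comparison.

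The second table asked whether the stage at which LY is added matters. In cell2_LY against LY_DMSO, 2 of the 8 genes were called, KRT19 and NES, both higher, where 17% of all 14529 tested genes were called, 8.71% higher, and 24.6% had an unadjusted p under 0.05. KRT19 stood at 361.3 and 91.2 FPKM in LY_DMSO and at 621.1 and 692.4 FPKM in cell2_LY. The groups did not overlap, as for 53.7% of all tested genes, and the 2 controls differed from each other more than the treated embryos did. The log2 fold change was 1.85 (SE 0.56, adjusted p = 0.106, limma). NES stood at 0.625 and 0.429 FPKM in LY_DMSO and at 1.29 and 1.68 FPKM in cell2_LY, on 42 to 154 reads, with a log2 fold change of 1.49 (SE 0.51, adjusted p = 0.133, limma). Without LY_DMSO replicate 1 both were called (2.84 and 1.75). Without LY_DMSO replicate 2 neither was called, and KRT19 had a log2 fold change of 0.86. Without cell2_LY replicate 2 KRT19 and NES also missed the threshold, and VIM, which then rests on replicate 1 alone, was called (6.24).

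KRT18 was at 1569 and 1128 FPKM in LY_DMSO and at 1828 and 2888 FPKM in cell2_LY, without overlap, and its log2 fold change of 0.79 (95% interval -0.02 to 1.60) did not pass. KRT8 was at 3111 and 2753 FPKM in LY_DMSO and at 3029 and 4391 FPKM in cell2_LY, with overlap. KRT7 was lower in cell2_LY (12.1 and 9.99 FPKM) than in LY_DMSO (17.0 and 17.4 FPKM), with a log2 fold change of -0.64 (95% interval -1.41 to 0.12, adjusted p = 0.274, limma). LMNA was at 15.3 and 18.2 FPKM in LY_DMSO and at 20.5 and 16.6 FPKM in cell2_LY. LMNB1 was at 11.3 and 16.9 FPKM in LY_DMSO and at 11.7 and 8.35 FPKM in cell2_LY, and neither lamin passed. For cell2_LY replicate 1 the library size used by the authors exceeded its gene reads 1.23 times. With reads on genes as the size, the median of all genes moved from 0.003 to 0.24 and the share of called genes that were higher from 51.1% to 73.2%, and KRT18 was called (1.02), as it was without cell2_LY replicate 1 (1.12).

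In cell16_LY against LY_DMSO, 1 of the 8 genes was called, higher, where 5.22% of all tested genes were called, 3.25% higher, and 7.62% had an unadjusted p under 0.05. KRT19 stood at 1084 and 744.0 FPKM in cell16_LY, above both controls (42.9% of all tested genes had groups without overlap), with a log2 fold change of 2.31 (SE 0.56, adjusted p = 0.499, limma). KRT8 was at 3627 and 3491 FPKM, also above both controls, with a log2 fold change of 0.28 (95% interval -0.57 to 1.13). KRT18 was at 1311 and 1464 FPKM, within the control range, and its log2 fold change was 0.06 (95% interval -0.75 to 0.87). KRT7 (15.6 and 9.98 FPKM), LMNA (11.9 and 16.9 FPKM) and LMNB1 (10.3 and 8.68 FPKM) did not pass, nor did NES (1.01 and 0.554 FPKM). VIM was at 0.627 and 0.414 FPKM against 0.329 and 0.0656 FPKM in LY_DMSO, on 2 to 19 reads. KRT19 was therefore called in both comparisons with LY_DMSO, which share the same 2 control embryos. In cell16_LY the call held under every alternative run, with log2 fold changes from 1.31 without LY_DMSO replicate 2 to 3.30 without LY_DMSO replicate 1.

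The keratins of simple epithelia mark the trophectoderm, and the summed trophectoderm list was higher in both LY groups of the second table. Its 10 markers summed to 115.7 and 108.2 FPKM in LY_DMSO, 177.2 and 257.8 FPKM in cell2_LY, and 159.9 and 167.8 FPKM in cell16_LY. In the first table they summed to 190.8 to 273.5 FPKM in DMSO and 110.1 to 217.3 FPKM in LY10, so the list was not higher under LY there. The markers did not all follow: in cell16_LY the higher sum was mostly PAG2, a placental glycoprotein (49.8 and 73.5 FPKM against 25.8 and 23.01 FPKM in LY_DMSO), while the transcription factor TFAP2C was lower (25.6 and 29.9 FPKM against 40.9 and 40.3 FPKM) and GATA2, TEAD4 and TFAP2A overlapped the controls. GATA3 (36.4 and 28.0 FPKM against 19.1 and 23.5 FPKM), IFNT2, TKDP1 and CDX2 were above both controls in cell16_LY, and ELF5 overlapped. In cell2_LY, PAG2 overlapped the controls (14.4 and 89.97 FPKM) and GATA2 was higher (57.3 and 48.9 FPKM against 18.2 and 9.71 FPKM). GATA3, TFAP2C, IFNT2, TKDP1 and CDX2 were also above both controls in cell2_LY, while TEAD4, TFAP2A and ELF5 overlapped. The epiblast sums were 1022 and 951.2 FPKM in LY_DMSO, 538.9 and 756.2 FPKM in cell2_LY and 637.9 and 740.3 FPKM in cell16_LY. Most of that gap was ZFP42 (555.6 and 663.9, 125.7 and 450.1, and 355.4 and 415.5 FPKM). NANOG was lower in cell16_LY (30.9 and 18.6 FPKM against 49.6 and 31.6 FPKM in LY_DMSO) and overlapped in cell2_LY (33.3 and 1.68 FPKM). KLF17 was at 1.499 and 0.735 FPKM in LY_DMSO. It was lower in cell2_LY (0.379 and 0 FPKM) and in cell16_LY (0.125 and 0.162 FPKM). POU5F1, SOX2, LIN28B and PRDM14 overlapped the controls in both LY groups. The part of the trophectoderm or epiblast share in the KRT19 level was not tested.

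Embryos given LY from the 16-cell stage were then compared with those given it from the 2-cell stage. With limma none of the 8 genes was called, 0 of the 8 had an unadjusted p under 0.05 and voom weights called 0, where 11.3% of all tested genes were called and 17.9% had an unadjusted p under 0.05. KRT18 had a log2 fold change of -0.73 (95% interval -1.54 to 0.08) and NES of -0.97 (95% interval -2.13 to 0.20), and for both the cell16_LY values lay under the cell2_LY values, while 54.5% of all tested genes had groups without overlap. KRT19 had a log2 fold change of 0.45 (95% interval -0.82 to 1.73), with both cell16_LY embryos above both cell2_LY embryos. With reads on genes as library size, the median of all genes moved from 0.04 to -0.18 and the share of called genes that were higher from 49.1% to 25.0%. The call for KRT18 appeared without cell2_LY replicate 1 (-1.06), and that for VIM without cell2_LY replicate 2 (-4.74).

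The last comparison asked what LY does in bESCs. None of the 8 genes was called with limma, 0 of the 8 had an unadjusted p under 0.05 and voom weights called 0. In the same limma fit 0.0749% of all 16012 tested genes were called and 0.0999% had an unadjusted p under 0.05. With the replicate number as a block, KRT8, KRT18 and VIM had p under 0.05 (limma), none past the fold threshold. That blocked fit called 0.912% of all tested genes, and its share with p under 0.05 was not counted. Without the block, VIM, NES and LMNB1 had the narrowest intervals. VIM was at 235.6 and 258.4 FPKM in bESC_tifx and at 228.4 and 227.8 FPKM in bESC_LY, a log2 fold change of -0.11 (95% interval -0.45 to 0.23), and its groups did not overlap, as for 14.2% of all tested genes. NES was at 85.0 and 92.2 FPKM in bESC_tifx and at 81.4 and 105.3 FPKM in bESC_LY, a log2 fold change of 0.06 (95% interval -0.41 to 0.54). LMNB1 was at 80.3 and 110.6 FPKM in bESC_tifx and at 82.2 and 103.9 FPKM in bESC_LY, with an interval of -0.63 to 0.57. For the keratins the interval was wide, as for KRT8 (208.6 and 73.9 FPKM against 180.8 and 60.4 FPKM, 95% interval -2.20 to 1.71), which holds the gap between the replicate numbers. Both KRT8 and KRT18 were lower with LY within each number: the LY to TIFX ratio was 0.867 and 0.818 for KRT8 and 0.849 and 0.915 for KRT18.

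Partner genes can be compared within a library, where scaling cancels. The ratio of KRT8 to KRT18, by FPKM, was 1.52 to 2.77 (median 2.13) in the 12 blastocysts and 2.44 to 4.02 in the bESCs. The cell2_LY embryos had the lowest ratios of all libraries, 1.52 and 1.66, and cell16_LY had 2.77 and 2.38. Their LY_DMSO controls had 1.98 and 2.44, above cell2_LY and overlapping cell16_LY. In DMSO it was 1.86 to 2.03 and in LY10 2.24 to 2.67, without overlap, and DMSO replicate 3 lay with its own group at 2.03. The LY10 ratios were thus above their controls and the cell2_LY ratios below theirs. KRT7 to KRT19 was 0.00517 to 0.191 in blastocysts, lowest in DMSO replicate 3 and highest in LY_DMSO replicate 2, and 0.105 to 0.157 in bESCs. LMNA to LMNB1 was 0.670 to 1.98 (median 1.12) in blastocysts and 0.0718 to 0.0918 in bESCs. VIM to KRT8 was at most 0.00478 in blastocysts and 1.13 to 3.77 in bESCs. These ratios are descriptions, since the partners were taken from the list.

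**Figure D4:**
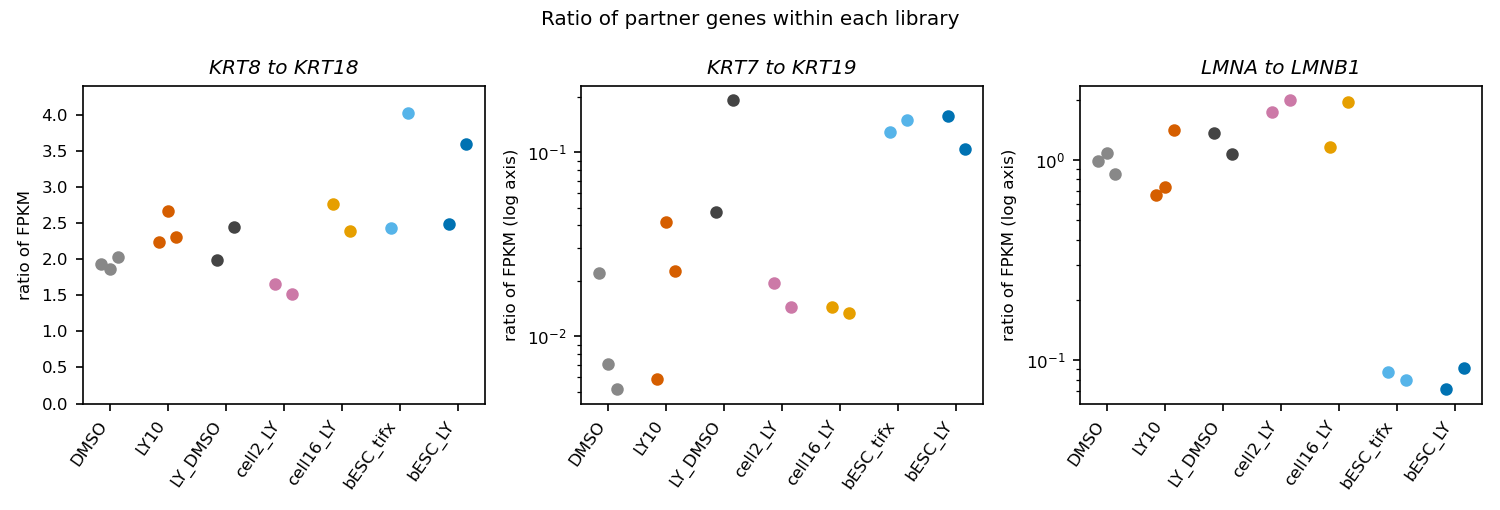
Ratio of the FPKM of partner genes within each library, by group, with 1 point per library; the KRT8 to KRT18 axis starts at 0 and the other axes are log axes. The cell2_LY embryos have the lowest KRT8 to KRT18 ratios, and LMNA to LMNB1 is below 0.1 in the 4 bESC libraries and at least 0.670 in the blastocysts.

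KRT8 and KRT18 have gene models that resemble them and could take some of their reads. In the blastocysts LOC515823, annotated as KRT8-like, stood at 1.66 to 24.5 FPKM against at least 1582 FPKM for KRT8, and LOC132345851, annotated as KRT18-like, at no more than 0.157 FPKM. Adding them left the KRT8 to KRT18 median at 2.14.

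Other filament genes were counted from fixed lists in each comparison. Among 9 further type III and IV filaments, 6 were tested in each blastocyst table, of which 1 was called lower in LY10 (NEFM, a neurofilament, at -3.61, named after its values were seen), and none in cell2_LY or cell16_LY. Of the 27 further type I keratins, 3 were tested in the first table and 2 were lower in LY10, where 14.7% of all tested genes were called. KRT10, a keratin of stratified epidermis, was at 17.2, 9.96 and 7.98 FPKM in DMSO and at 2.08, 1.89 and 3.88 FPKM in LY10 (log2 fold change -2.14, SE 0.43, adjusted p = 0.0783, limma), without overlap. KRT15, a keratin of basal epithelial cells, was at 4.59, 10.1 and 3.32 FPKM in DMSO and at 1.48, 1.96 and 0.912 FPKM in LY10 (log2 fold change -1.91, SE 0.54, adjusted p = 0.0997, limma). The median of the 3 was -1.91 beside -0.05 over all genes. Without DMSO replicate 3, 2 of the 3 type I keratins and 3 of the 6 type III and IV filaments were lower, where 24.2% of all tested genes were called. None of the 4 tested type I or 4 tested type II keratins was called in cell2_LY or cell16_LY. The type II median in cell2_LY was -1.38, and it ran from -3.07 without LY_DMSO replicate 1 to 0.059 without LY_DMSO replicate 2. In cell16_LY it was -0.48, and it ran from -2.09 to 0.69 without the same libraries. Such fits leave 1 library in a group, and the calls changed in them. Without LY_DMSO replicate 1, calls appeared among the type II keratins (lower) and the type I keratins (higher). Without cell2_LY replicate 2, the type II list also held a lower call. The type III and IV list held calls whichever cell2_LY or LY_DMSO library was left out.

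Linkers and desmosome genes anchor keratin filaments to the cell edge, and 15 of the 20 listed were tested in the second table. In cell2_LY against LY_DMSO, 8 of the 15 were called, all higher, and the list's median was 1.06 (log2 fold change) beside 0.003 over all genes, where 8.71% of all tested genes were called higher. JUP, plakoglobin of the desmosome plaque, stood at 31.1 and 30.0 FPKM in LY_DMSO and at 68.2 and 60.4 FPKM in cell2_LY (log2 fold change 1.07, SE 0.24, adjusted p = 0.0771, limma). DSC2, a desmosomal cadherin, stood at 41.1 and 13.2 FPKM in LY_DMSO and at 76.3 and 82.2 FPKM in cell2_LY (1.76, SE 0.48, adjusted p = 0.093, limma). PPL, periplakin, stood at 0.483 and 0.407 FPKM in LY_DMSO and at 2.67 and 1.46 FPKM in cell2_LY (2.13, SE 0.45, adjusted p = 0.0743, limma). Without cell2_LY replicate 1 the median was 0.80, without cell2_LY replicate 2 it was 0.79. Without LY_DMSO replicate 1 it was 0.96, and without LY_DMSO replicate 2 it was 0.95. Fewer linkers were called in each of these fits, which leave 1 library in a group, and fewest without cell2_LY replicate 1. Without cell2_LY replicate 2 or LY_DMSO replicate 1, not all those called were higher.

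In cell16_LY against LY_DMSO, 2 of the 15 were called higher: DSC2 at 96.5 and 66.5 FPKM (1.78, adjusted p = 0.521, limma) and PPL at 1.11 and 1.17 FPKM (1.34, adjusted p = 0.589, limma), where 3.25% of all tested genes were higher. Without LY_DMSO replicate 2, 0 of the 15 were called with limma, and without LY_DMSO replicate 1 3 were higher and 1 lower. Against cell2_LY, PLEC (plectin, which links keratins to other cables) and DSP (desmoplakin) were lower in cell16_LY with log2 fold changes of -1.35 and -1.37, and PKP3 (plakophilin, named after its values were seen) was also lower (-1.82), where 11.3% of all tested genes were called. In LY10 against DMSO, 2 of 14 were higher and 1 lower, where 14.7% of all tested genes were called. PLEC was higher, at 0.930, 0.405 and 0.548 FPKM against 0.179, 0.241 and 0.301 FPKM in DMSO (1.31). DSP (1.57, with overlap) was also higher and DSC1 (-3.11), a desmosomal cadherin, lower, both named after their values were seen. Without DMSO replicate 3 it was 4 higher and 2 lower of 13, where 24.2% were called. In bESCs none of 17 was called.

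**Figure D5:**
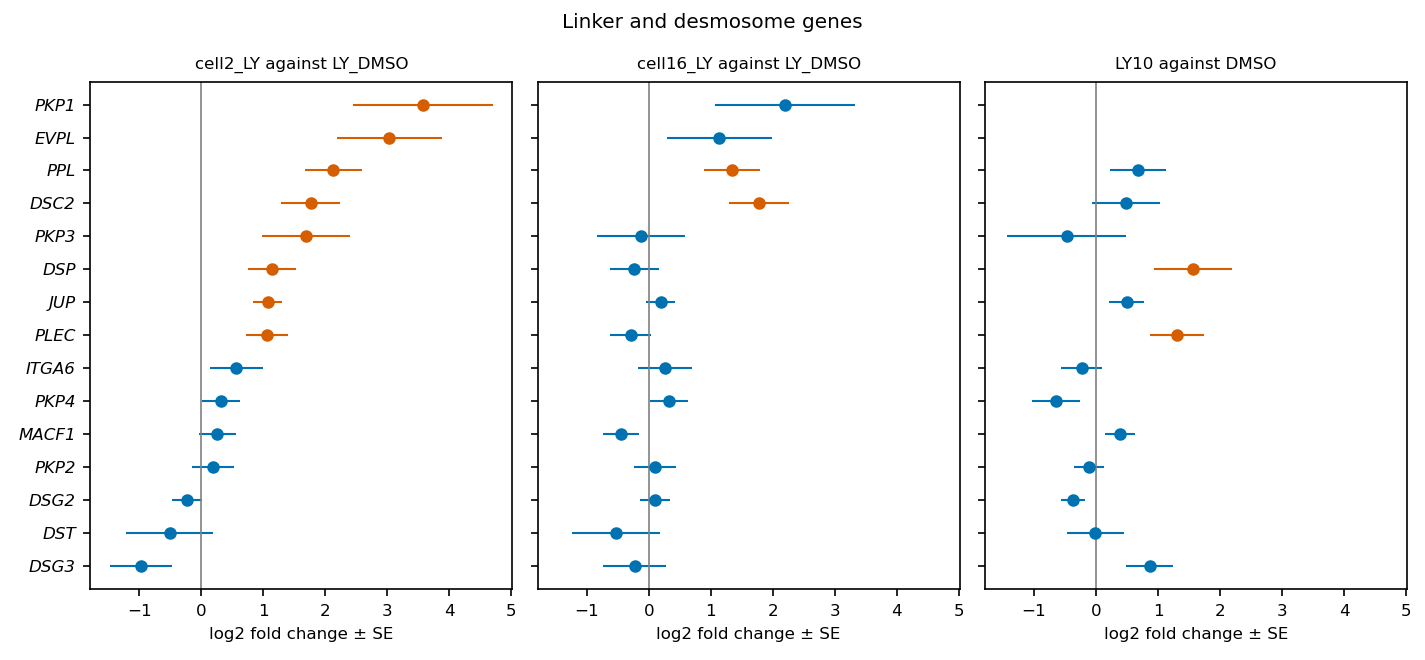
Log2 fold change with SE of the linker and desmosome genes tested in the second blastocyst table, in 3 comparisons on 1 shared axis; orange points passed the threshold, and genes absent from a panel were not tested there. In cell2_LY, 8 genes passed, all higher, against 2 in cell16_LY.

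The lamina list holds 17 genes, all tested in the second table. In cell2_LY against LY_DMSO 2 were higher and 2 lower, where 17% of all tested genes were called. LEMD2 (log2 fold change 1.42) and SUN1 (1.53), both inner nuclear membrane proteins, were higher, and ZMPSTE24 (-1.14), the protease that matures prelamin A, and TOR1AIP1 (-1.74), another inner membrane protein, were lower, with adjusted p between 0.0838 and 0.116 (limma). ZMPSTE24 stood at 35.0 and 42.5 FPKM in LY_DMSO and at 14.5 and 21.0 FPKM in cell2_LY. It stood at 52.2 and 46.9 FPKM in cell16_LY and was called higher there than in cell2_LY (log2 fold change 1.502, SE 0.29, adjusted p = 0.186, limma). FNTA, a subunit of the enzyme that farnesylates lamins, was also higher in cell16_LY than in cell2_LY (1.09), where 11.3% of all tested genes were called, and LMNB2 (-1.12), LEMD2 (-1.14) and SUN1 (-1.13) were lower. LMNA itself was not called in any of these comparisons, and its interval for cell2_LY against LY_DMSO was -0.53 to 0.81. The part of the trophectoderm markers and of the library size given above in these counts was not tested. In cell16_LY against LY_DMSO, SYNE1, a nuclear envelope linker named after its values were seen, was lower (-2.38) and was the 1 lamina gene called, where 5.22% of all tested genes were called. In LY10 against DMSO none of 16 lamina genes was called. Without DMSO replicate 3, 1 was lower, where 24.2% of all tested genes were called. The lamina median in cell2_LY was 0.07. It was 0.14 and -0.01 without cell2_LY replicates 1 and 2, and 0.01 without LY_DMSO replicate 1. In cell16_LY it was 0.07, and 0.14 and -0.03 without LY_DMSO replicates 1 and 2. The lamina calls changed with the library left out, and SYNE1 was not called in cell16_LY without LY_DMSO replicate 2.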

How the data were processed

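Libraries of single bovine blastocysts were made by SMART-seq, which amplifies polyadenylated RNA by PCR, and bESC RNA was extracted with a column kit. Per the labels and the study's methods, the authors aligned reads with HISAT2 2.0.5 and counted them with featureCounts 1.5.0-p3. The methods also name STAR. The deposited values, titled as normalized counts, are FPKM. From gene length and the smallest steps between values, the reads on each gene and the authors' library size were recovered, and 100% of values fell within 0.02 of whole reads. The tables' columns of the authors' own fold changes and p-values were not used.

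The authors' library size was scaled to the table's geometric mean (10651692, 15246235 and 30547774), and log2(normalized count + 1) of genes with a mean of at least 10 was fitted with limma 3.58.1 in R 4.3.3 (lmFit, then eBayes with an intensity trend). One fit held all 3 groups of the second table. Adjusted p-values are Benjamini-Hochberg over all tested genes. Log2 fold changes of low genes are understated by the pseudocount of 1. For 0 reads, the upper limit printed is the level of 3 reads and allows for counting error only. Figures used Python 3.11.15. The fits were tested on simulated data with known changes.

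The members, lists and tests were chosen with earlier results of these data known. All 9 members were named in every comparison. Other family genes were named when past the threshold with a mean of at least 50 and no overlap, up to 3 per list and direction, and the 5 genes most like PRPH by Pearson r. Other pseudocounts, filters, scalings, weights, a replicate block and each library left out were tried. No sequence was printed.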

Additional observations from a re-analysis of the deposited data

Results flagged for a closer look

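VIM had LY values wholly to 1 side of the controls in opposite directions in 2 comparisons. In cell16_LY against LY_DMSO its log2 fold change was 1.51, with both treated embryos above both controls. That rests on 2 to 19 reads a library, and the nearest pair is 0.414 against 0.329 FPKM. In bESC_LY against bESC_tifx it was -0.11, with both treated libraries below both controls. Over all tested genes, 42.9% and 14.2% had groups without overlap in these comparisons, and VIM overlapped in the other 3. The difference between these 2 effects was not tested, and neither effect passed the threshold by itself.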

How the results depend on the processing

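Of the values of the 8 tested genes under other settings, 414 kept their direction and their side of the threshold, 3 reversed, 4 newly passed the threshold and 1 no longer passed it. With a library left out, 184 kept both, 21 reversed, 12 newly passed and 4 no longer passed. In groups of 2 that leaves an arm with 1 sample, which is then assumed to vary like the other groups. The cause of these changes was not tested.

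In LY10 against DMSO, 1 gene passed (KRT7) with no filter, with median-of-ratios scaling and with quantile normalization. Of all tested genes, 11.3%, 14.8% and 13.7% were called in these settings. In cell2_LY against LY_DMSO, 1 passed on log2(FPKM + 1), where 12.3% of all tested genes were called. With 1 library left out, the count ran from 0 to 4 in LY10, where 9.64% to 24.2% of all tested genes were called. The count also changed in cell2_LY against LY_DMSO and in cell16_LY against cell2_LY, where such fits leave 1 library in a group.

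In cell16_LY against cell2_LY, VIM reversed to 0.056 with a pseudocount of 0.5 and to 0.30 with voom weights, and KRT7 to -0.035 with reads on genes as library size. With 1 library left out, the log2 fold changes that changed sign ran as follows. In cell2_LY against LY_DMSO, LMNA ran from -0.012 to 0.29. In cell16_LY against LY_DMSO, KRT18 ran from -0.18 to 0.30 and LMNA from -0.49 to 0.014. In cell16_LY against cell2_LY, KRT7 ran from -0.14 to 0.50, LMNB1 from -0.32 to 0.18 and KRT8 from -0.30 to 0.23. In bESCs, where leaving out 1 library unbalances the replicate numbers, LMNB1 ran from -0.26 to 0.20, LMNA from -0.42 to 0.27, KRT19 from -1.08 to 0.96, KRT18 from -1.29 to 0.93, NES from -0.12 to 0.25, KRT7 from -1.42 to 1.07 and KRT8 from -1.04 to 0.54.

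A replicate block changed no count of calls among the 8 genes. Over all genes it moved the count of calls in bESCs from 12 to 146 (0.912% of all tested genes), where same-numbered libraries deviated together (correlation 0.789). With 2 libraries in each group, both same-numbered pairs give that 1 value by construction. In the blocked bESC fit 3 of the 8 genes (KRT8, KRT18 and VIM) had an unadjusted p under 0.05 (limma), against 0 without the block. The share of all genes with such a p in the blocked fit was not counted. KRT8 had a log2 fold change of -0.25 (SE 0.05, adjusted p = 0.00136 with limma) and stayed short of the fold threshold. With only 2 pairs, the SE of KRT8 came from the trend over all genes, so this p does not measure its own spread. In the first blastocyst table same-numbered libraries correlated at -0.117, 0.168 and -0.0997, so the numbers do not pair them.

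Over all genes, LY10 calls numbered 3144 with no filter against 2097, and the share higher was 42.2% against 54.99% with quantile normalization. Calls in cell2_LY numbered 1628 on log2(FPKM + 1) against 2476, and in cell16_LY 454 on log2(FPKM + 1) and 1238 with no filter against 758. The comparison of cell16_LY with cell2_LY had 958 on log2(FPKM + 1) against 1649. In bESCs they numbered 158 with no filter, 2 with a mean of at least 50 and 22 on log2(FPKM + 1) against 12. Depth limits VIM and NES most in blastocysts, with 0 to 374 and 7 to 154 reads a library.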
